A study of Homo sapiens with 4 samples.

Results

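Chaperonins are barrel-shaped protein complexes that take up an unfolded protein and let it fold in an enclosed chamber, at the cost of ATP. The cytosolic one, CCT (also called TRiC), is built from 8 different subunits encoded by TCP1, CCT2, CCT3, CCT4, CCT5, CCT6A, CCT7 and CCT8, which stand side by side in each ring, and it folds actin, tubulin and many WD-repeat proteins. The mitochondrial one is a barrel of a single subunit, Hsp60 (gene HSPD1), closed by a lid of Hsp10 (gene HSPE1), and it folds proteins imported into the matrix. In dividing lymphoid cells both are abundant, and HSPD1, HSPE1 and several CCT genes stand in widely used sets of MYC target genes. The genes described here are these 10, found by symbol among the 25122 genes of the deposited table; all 10 were measured in all 4 libraries and all 10 passed the filter on low values.

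The RNA came from Jurkat, a leukaemic T-cell line of human origin, in 2 groups: 2 libraries carried a hairpin against BDH1 (shBDH1) and 2 a control hairpin (shcontrol). All cells are labelled WT in genotype, and the labels do not say whether a group was a pool or a clone, nor whether its libraries were grown apart. The p-values therefore cover library-to-library spread alone, possibly technical. The limma fit draws each gene's spread toward that of genes with similar counts. BDH1 is the mitochondrial 3-hydroxybutyrate dehydrogenase. The study's design text treats MYC as lying downstream of BDH1 and speaks of restoring MYC, but no library used here is labelled as having MYC restored. Values are normalized read counts, that is, reads per gene divided by 1 size factor per library, and fold changes are log2 values of shBDH1 relative to shcontrol on the log2(value + 1) scale, with their standard error (SE).

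Reads in genes numbered 28777374 to 29453383 in the shBDH1 libraries and 28681511 to 28797402 in the shcontrol libraries. BDH1 had 1221 and 1412 normalized counts in shBDH1, against 1725 and 1911 in shcontrol (log2 fold change -0.47, SE 0.08, limma adjusted p = 1.5e-05). All 9 T cell markers looked for were measured, with CD3E at 14202 and 14065 normalized counts in shBDH1 and 12444 and 12422 in shcontrol. Of the 9, 5 rose and 1 fell, where 20.3% of all genes tested rose and 20.8% fell. Markers of other cells were far lower but moved with the groups. The 8 NK and cytotoxic markers summed to 842 and 811 in shBDH1 and 237 and 221 in shcontrol, with 4 of the 7 tested higher. The 3 B cell markers found summed to 686 and 666 in shBDH1 and 220 in each shcontrol library, nearly all of it CD79A. The 5 myeloid markers found summed to 88.5 and 78.4 in shBDH1 and 56.5 and 63.4 in shcontrol, where LYZ was at 0 in 3 of the 4 libraries, and the 3 fibroblast and epithelial markers found to 1031 and 922 against 718 and 732. ALAS2, the erythroid gene found, had 16.7 and 71.4 in shBDH1 and 32.9 and 35.8 in shcontrol. The part of these markers in the results below was not tested.

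The start regions of the chaperonin genes are shown first, because HSPD1 and HSPE1 share theirs. The motifs searched include those to which HSF1 and MYC can bind, and binding was not measured here. HSPD1 lies on the minus strand and HSPE1 on the plus strand of chromosome 2, head to head, with RefSeq starts 105 bases apart. HSPD1 has another RefSeq start 434 bases further inward. The 300-base window of that inner start (250 bases before it to 50 after it, RefSeq, build GRCh38.p14, chr2:197499791-197500090, minus strand) reads as follows, with capitals for every match to the motifs named below.
HSPD1 inner start: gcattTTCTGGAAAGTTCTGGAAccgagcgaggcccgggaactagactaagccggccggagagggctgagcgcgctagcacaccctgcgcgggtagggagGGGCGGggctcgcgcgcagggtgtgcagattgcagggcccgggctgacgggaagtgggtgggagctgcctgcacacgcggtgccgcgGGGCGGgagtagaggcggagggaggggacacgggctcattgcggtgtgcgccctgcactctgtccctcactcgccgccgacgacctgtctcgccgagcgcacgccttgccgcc

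Its first capitals are a heat shock element, the repeat to which HSF1 binds, with 4 alternating units: TTCNNGAA, any 2 bases, and TTCNNGAA again. This 4-unit form was found in 9 of 35116 RefSeq promoter windows, 0.0256%, searched on both strands. It starts 245 bases before the inner HSPD1 start and ends 294 bases before the HSPE1 start. Other chaperonin windows held at most the shorter 2-unit forms: GAANNTTC, which 6.77% of all windows hold, stood in those of TCP1, CCT2 and, within the longer element, HSPD1, and TTCNNGAA, which 7.74% hold, in those of CCT4 and HSPD1. The E-box CACGTG, the site of MYC with MAX, stands once between the HSPE1 start and the outer HSPD1 start, so that 1 site fell in the windows of both genes; 7.26% of all windows hold one. Below are 30-base stretches around these matches, 5′ to 3′ on the strand of the gene, with the match in capitals.
TCP1 heat shock element, chr6:159789815-159789844, minus strand: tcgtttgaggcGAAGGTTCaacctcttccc
CCT2 heat shock element, chr12:69585789-69585818, plus strand: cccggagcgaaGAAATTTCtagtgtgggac
CCT4 heat shock element, chr2:61888607-61888636, minus strand: cccgacgccggcgccgctTTCTGGAAggtt
HSPE1 and HSPD1 E-box, chr2:197500345-197500374, plus strand: gggtgattttttCACGTGtcgccagggccg

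Other motifs were searched in the 12 windows of 9 chaperonin genes. CCAAT (either strand) stood in 4 windows, of TCP1, CCT2, CCT3 and CCT8, against 34.6% of all windows. The GC box GGGCGG (either strand) stood in 9 of the 12 windows, from 7 of the 9 genes, against 45% of all windows. A shared GC box fell in windows of both HSPD1 and HSPE1. The ATF4 core TGATGCAA stood in none, against 0.866%. CCT6A had no entry. A match describes the letters and is not a measured site of binding.

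Most of the chaperonin genes were slightly lower in shBDH1. Of the 10, 7 fell (CCT2, CCT3, CCT4, CCT5, CCT7, CCT8 and HSPD1), none rose, and TCP1, CCT6A and HSPE1 did not pass the test (limma, adjusted p under 0.05 over 19301 genes). In the same comparison 20.8% of all genes tested fell and 20.3% rose, 41.1% in all. The libraries of the groups did not overlap, with shBDH1 lower, for 8 of the 10, against 34.9% of all genes tested, and 69% of all genes did not overlap in either direction. Well-expressed genes passed more often: among the 1052 genes with a mean of at least 5000 normalized counts, a limit set after the values were seen, 42.1% fell and 29.8% rose, against 7 of the 9 chaperonin genes above that limit; 49.5% of the 1052 did not overlap with shBDH1 lower. The falls ran from 7.5% for CCT3 to 12.6% for HSPD1, and the median log2 fold change of the 10 was -0.15, against -0.01 over all genes tested and -0.05 over the 1052. In RNA from whole cultures, less of an mRNA in every cell and fewer cells that carry it cannot be told apart.

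**Figure D1:**
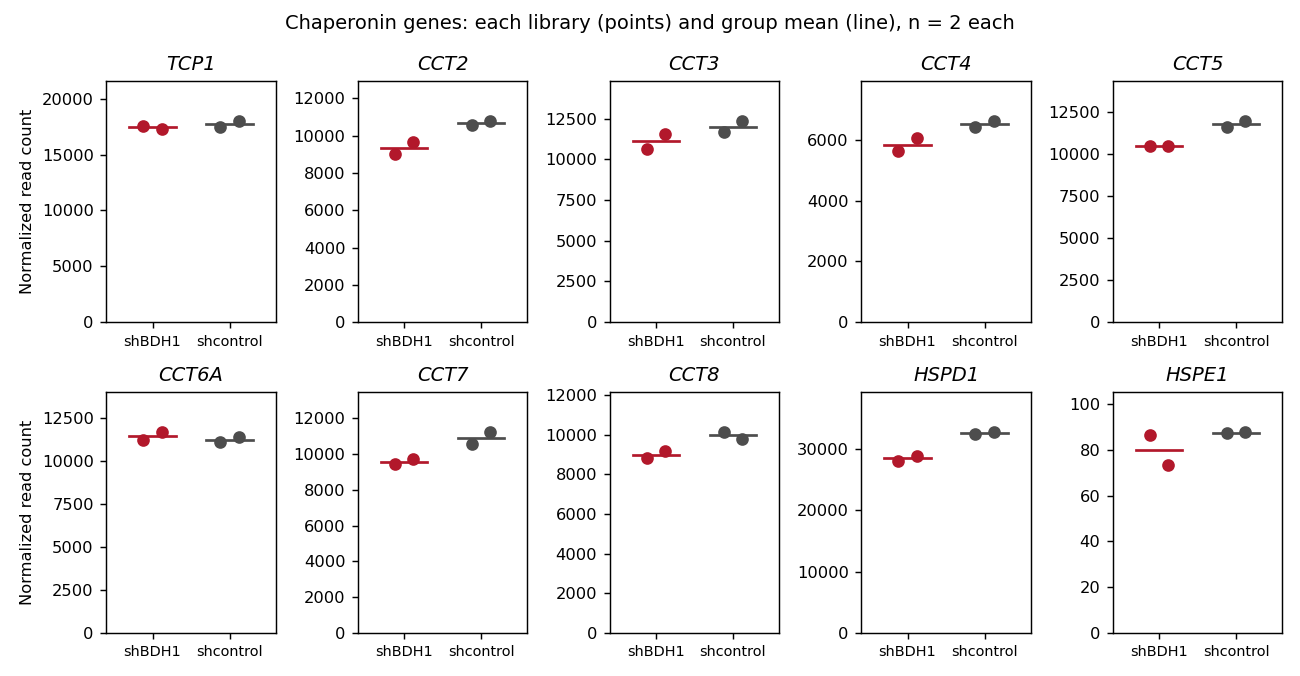
Normalized read count (y axis, from 0) of each chaperonin gene in the 2 shBDH1 and 2 shcontrol libraries, with points for libraries and lines for group means. The groups overlap for TCP1 and CCT6A, and the other 8 genes are lower in both shBDH1 libraries, HSPE1 by less than 1 count at its nearest points.

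HSPD1 encodes the barrel of the mitochondrial chaperonin and had the highest counts of the 10. It had 28075 and 28894 normalized counts in shBDH1, against 32423 and 32773 in shcontrol. Both shBDH1 libraries lay well below both shcontrol libraries, and the gap was larger than the spread within either group. On the log2 scale it fell by 0.19 (SE 0.03, limma adjusted p = 4.2e-06), with a 95% interval of -0.26 to -0.13, and it passed in all 14 alternatives tried. HSPD1 (ENSG00000144381) spans chromosome 2 from 197486581 to 197516737 (hg38).

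HSPE1 encodes the lid that works with that barrel, and its counts were of another order. It had 86.5 and 73.4 normalized counts in shBDH1, against 87.3 and 87.9 in shcontrol. The groups did not overlap, but the shBDH1 libraries differed from each other by more than the nearest libraries of the groups did. Its log2 fold change was -0.13 with a wide interval, -0.72 to 0.45 (SE 0.28, limma adjusted p = 0.74). A fall the size of that of HSPD1 was therefore not detectable at these counts. HSPE1 (ENSG00000115541) spans chromosome 2 from 197499994 to 197503457.

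Per length, with reads divided by the union of annotated exons and scaled to the same total in each library (the TPM scale), HSPE1 had 4.82 and 4.08 TPM in shBDH1 and 4.72 and 4.75 in shcontrol. HSPD1 had 729 and 748 TPM in shBDH1 and 817 and 825 in shcontrol. The HSPE1 level was thus 0.00662 and 0.00546 of the HSPD1 level in shBDH1 and 0.00578 and 0.00576 in shcontrol, and by mean level HSPD1 ranked 103 and HSPE1 14221 among the 25010 genes with an annotated length. The HSPE1 coding sequence has many near-identical copies: of its 260 windows of 50 bases, 61.5% occur letter for letter in the annotated transcripts of other genes, the read-through gene HSPE1-MOB4 not counted. Copies at 90% identity or more over at least 80% of the coding sequence numbered 7, the closest being HSPE1P2 at 96.8%. GENCODE annotates 26 HSPE1 pseudogenes by symbol, and the table holds values for none of them. For HSPD1 the windows found elsewhere were 35.6%, for TCP1, CCT8, CCT6A and CCT5 between 6.28% and 11.8%, and for CCT2, CCT3, CCT4 and CCT7 0. How the submitters counted reads that fit several places is not given in the sources used here. The part of these copies in the HSPE1 counts was therefore not tested. On the opposite strand, HSPD1 shares 281 exon bases with HSPE1, 14.2% of the HSPE1 exon bases. Whether reads were counted by strand is not known, so the part of this overlap was not tested either. The count of HSPE1 is uncertain.

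**Figure D2:**
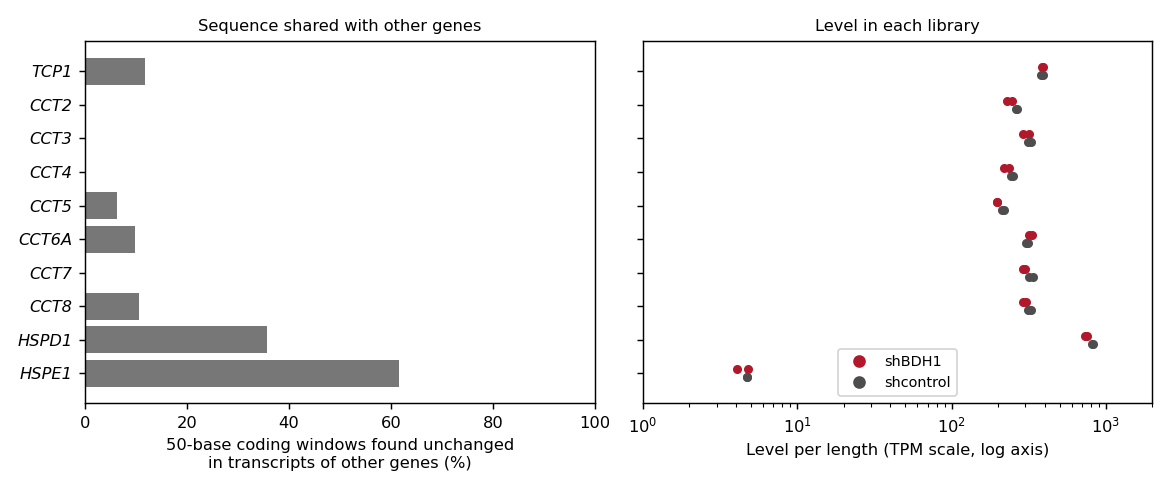
Left, percent of 50-base windows of each coding sequence that occur unchanged in transcripts of other genes; right, level per length of each gene in each library on the TPM scale (log axis), shBDH1 above shcontrol. HSPE1 has the highest share, 61.5%, and levels under 5 TPM, while the other 9 genes lie between 197 and 825 TPM.

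Some copies and neighbours had values of their own. HSPD1P1, which matches HSPD1 at 97.4%, had 89.4 and 101 normalized counts in shBDH1 and 76.0 and 79.7 in shcontrol (log2 fold change 0.28, limma adjusted p = 0.45), under 1% of the counts of HSPD1. HSPD1P4 (log2 fold change 1.41) and HSPD1P12 (0.61) did not pass either (limma adjusted p = 0.14 and 0.52). MOB4, a subunit of the STRIPAK kinase-phosphatase complex that lies beyond HSPE1, rose, with 572 and 582 in shBDH1 and 386 and 445 in shcontrol (log2 fold change 0.48, limma adjusted p = 0.0018). HSPE1-MOB4 shares 192 exon bases with HSPE1 and stayed under the filter, at 13.8 and 9.05 in shBDH1 and 10.3 and 1.02 in shcontrol.

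Among the CCT subunits, CCT2 and CCT7 fell most. CCT2, the beta subunit, had 9015 and 9672 normalized counts in shBDH1, against 10574 and 10779 in shcontrol. CCT7, the eta subunit, had 9421 and 9702 in shBDH1, against 10571 and 11233 in shcontrol. In both genes each shBDH1 library was below each shcontrol library, and each fell by 0.19 on the log2 scale (SE 0.04), with limma adjusted p = 0.00029 for CCT2 and 0.00032 for CCT7.

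CCT5, the epsilon subunit, had 10469 and 10462 normalized counts in shBDH1, against 11597 and 11945 in shcontrol, and fell by 0.17 on the log2 scale (SE 0.04, limma adjusted p = 0.00051). Its shBDH1 libraries were almost equal, so the within-group spread of its own counts came from shcontrol. An antisense gene, AC012640.4, overlaps 30.1% of the exon bases of CCT5 and fell too, with 1260 and 1286 in shBDH1 and 1475 and 1451 in shcontrol (log2 fold change -0.20, limma adjusted p = 0.03). Whether reads were counted by strand is not known, so the values of this pair are uncertain.

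CCT8, the theta subunit, had 8836 and 9181 normalized counts in shBDH1, against 10151 and 9809 in shcontrol (log2 fold change -0.15, SE 0.04, limma adjusted p = 0.0034). The groups were apart, but without shcontrol replicate 1 the call was lost (limma adjusted p = 0.1). CCT4, the delta subunit, had 5628 and 6069 in shBDH1, against 6436 and 6617 in shcontrol (log2 fold change -0.16, SE 0.05, limma adjusted p = 0.0063). It had the lowest counts of the CCT genes, and its call was lost without shBDH1 replicate 1 (log2 fold change -0.10, limma adjusted p = 0.088) or shcontrol replicate 2 (-0.14, 0.086). The antisense gene AC107081.2 overlaps 9.72% of its exon bases and had nearly as many counts, 5046 and 5116 in shBDH1 and 5222 and 5763 in shcontrol (log2 fold change -0.11, limma adjusted p = 0.075).

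CCT3, the gamma subunit, had the weakest of the 7 calls. It had 10648 and 11547 normalized counts in shBDH1, against 11656 and 12336 in shcontrol and the nearest libraries of the groups were close together. It fell by 0.11 on the log2 scale (SE 0.04, limma adjusted p = 0.029). The call was lost without shBDH1 replicate 1 (-0.05, limma adjusted p = 0.32) or shcontrol replicate 2 (-0.07, 0.36), with DESeq2 (adjusted p = 0.086) and in 3 further settings, and the value was -0.17 without shBDH1 replicate 2.

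TCP1 and CCT6A did not follow the other subunits. TCP1, the alpha subunit that gave the complex its name, had 17583 and 17309 normalized counts in shBDH1, against 17495 and 17999 in shcontrol. CCT6A, the zeta subunit, had 11204 and 11692 in shBDH1, against 11094 and 11383 in shcontrol. The groups overlap in both. The log2 fold changes were -0.02 for TCP1 (95% interval -0.09 to 0.04, limma adjusted p = 0.6) and 0.03 for CCT6A (-0.05 to 0.10, limma adjusted p = 0.62). The sign of TCP1 turned with the scaling, to 0.02 in edgeR with upper-quartile factors, where CCT6A had 0.07. The difference between subunits was not tested; an exact two-sided permutation test of 2 against 2 libraries cannot go below 0.33.

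**Figure D3:**
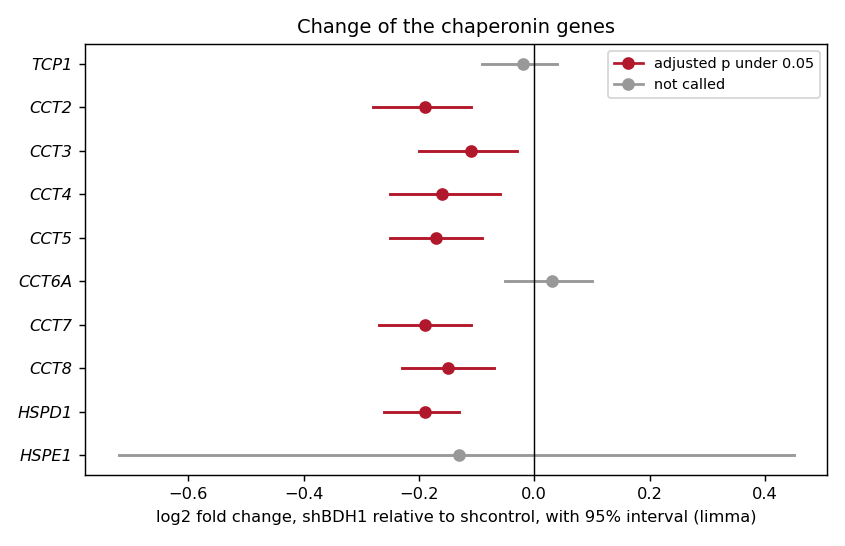
Log2 fold change of each chaperonin gene, shBDH1 relative to shcontrol (x axis), with its 95% interval from limma; red marks adjusted p under 0.05. The 7 genes called lie between -0.19 and -0.11, TCP1 and CCT6A lie at 0 within their intervals, and HSPE1 has the widest interval.

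The makeup of the CCT mRNA pool differed slightly between the groups, in values that were not tested. Per length, the 8 subunits summed to 2228 and 2309 TPM in shBDH1 and 2351 and 2414 TPM in shcontrol, so shBDH1 was lower in both libraries. CCT6A made up 14.2% and 14.3% of that sum in shBDH1 and 12.9% in each shcontrol library, and TCP1 17.6% and 16.7% in shBDH1 and 16.1% and 16.2% in shcontrol. CCT2, CCT4, CCT5 and CCT7 each had a lower share in both shBDH1 libraries, for example CCT7 with 13.0% and 12.9% in shBDH1 and 13.4% and 13.9% in shcontrol, while the shares of CCT3 and CCT8 overlapped. The spread of levels over the 8 subunits, as a coefficient of variation, was 22.5% and 20.8% in shBDH1 and 17.9% and 18.0% in shcontrol. TCP1 was the highest and CCT5 the lowest in every library. The ratio of these 2 was 1.99 and 1.96 in shBDH1 and 1.79 and 1.78 in shcontrol. Which subunit is lowest depends on the length used: by the longest transcript, and by coding length, CCT4 was. Normalized counts of all 10 genes made up 0.383% and 0.396% of the library in shBDH1 and 0.415% and 0.425% in shcontrol.

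**Figure D4:**
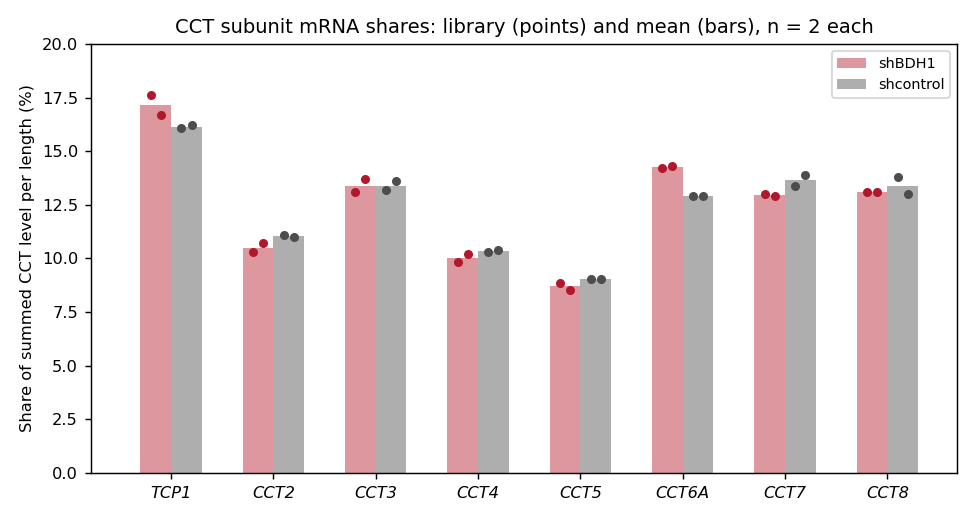
Share of each CCT subunit (y axis, percent, from 0) in the summed CCT level per length, with points for libraries and bars for the mean of 2 libraries per group. CCT6A and TCP1 have higher shares in both shBDH1 libraries, and CCT2, CCT4, CCT5 and CCT7 lower ones.

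Some chaperonin genes share a start region with another gene on the opposite strand. PSPH, the last enzyme of serine synthesis, starts 26 bases from CCT6A and fell, with 853 and 922 normalized counts in shBDH1 and 1571 and 1502 in shcontrol (log2 fold change -0.79, SE 0.08, limma adjusted p = 3.5e-09), while CCT6A did not pass. MRPL18, a protein of the mitochondrial ribosome 63 bases from TCP1, had 2083 and 2303 in shBDH1 and 2339 and 2546 in shcontrol (log2 fold change -0.16, limma adjusted p = 0.056). FAM173B, 24 bases from CCT5, had a log2 fold change of -0.22 (limma adjusted p = 0.076). COMMD1, PRADC1 and TSACC, beside CCT4, CCT7 and CCT3, had -0.04, -0.10 and -0.09 (limma adjusted p = 0.83, 0.57 and 0.39). ACAT2, whose 3′ end overlaps 8.05% of the exon bases of TCP1, had -0.07 (limma adjusted p = 0.38). None of these neighbours but PSPH passed the test.

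Among regulators known to act on chaperone genes, HSF1 and MYC fell most. HSF1, the master factor of the heat shock response, had 2403 and 2491 normalized counts in shBDH1, against 5147 and 5358 in shcontrol (log2 fold change -1.10, SE 0.05, limma adjusted p = 4.4e-16). MYC had 7453 and 7368 in shBDH1, against 14683 and 14804 in shcontrol (log2 fold change -0.99, SE 0.04, limma adjusted p = 2.7e-18). HSF1 fell by 53.4% and MYC fell by 49.7%, whereas the 7 chaperonin genes fell by 12.6% or less. Of 11 regulators listed, 6 fell and 1 rose, where 20.8% of all genes tested fell and 20.3% rose. The other falls were ATF5, a factor of the mitochondrial unfolded protein response (log2 fold change -0.62), NFYC (-0.35), ATF4 (-0.28) and NFYB (-0.26). NRF1 rose (0.25). Without shcontrol replicate 2 none of the 11 rose, and with upper-quartile factors in edgeR 3 did. HSF2 (0.16), DDIT3 (0.20), SP1 (-0.07) and NFYA (0.11) did not pass (limma adjusted p = 0.12, 0.32, 0.3 and 0.13).

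Genes for other mitochondrial chaperones, import factors and proteases fell more than HSPD1 itself in several cases. HSPA9, the matrix Hsp70 (mortalin), did not pass, with 11455 and 11483 normalized counts in shBDH1 and 11802 and 11994 in shcontrol (log2 fold change -0.05, limma adjusted p = 0.27). Of the 9 genes of the matrix Hsp70 and import motor list, 5 fell and none rose, with a median of -0.23: TIMM44, which ties Hsp70 to the import channel (-0.63), the nucleotide exchange factors GRPEL2 (-0.41) and GRPEL1 (-0.18), the J-protein DNAJA3 (-0.30) and DNAJC19 (-0.23). Only 3 of the 9 fell without shBDH1 replicate 1, without shcontrol replicate 1, with DESeq2 and in 3 further settings. Of 9 genes for the matrix Hsp90, mitochondrial proteases and CLPB, 6 fell and none rose, with a median of -0.27. Beside both lists, 20.8% of all genes tested fell and 20.3% rose. The matrix protease LONP1 had 5440 and 5504 in shBDH1, against 10217 and 10535 in shcontrol (log2 fold change -0.92, limma adjusted p = 1.2e-16), and CLPP, the other matrix protease, 1954 and 1946 against 3796 and 3779 (-0.96, limma adjusted p = 4.5e-14). CLPB (-0.55) and TRAP1, the matrix Hsp90 (-0.48), fell as well, and CLPX, the partner ATPase of CLPP, did not pass (-0.07).

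Among listed genes for prefoldin, R2TP and cofactors of CCT or other chaperones, those that passed the test moved both ways. Of all genes tested, 41.1% passed in either direction. Prefoldin, the complex that hands unfolded actin and tubulin to CCT, had 1 of 6 subunits that fell, PFDN4, with 632 and 624 normalized counts in shBDH1 and 819 and 884 in shcontrol (log2 fold change -0.44, limma adjusted p = 0.00055). The others lay between -0.16 for PFDN2 and 0.01 for VBP1 and did not pass, although 2 of the 6 fell with the replicate block or with a minimum mean of 50. Of 7 prefoldin-like and R2TP genes, RUVBL2 (-0.22) and PIH1D1 (-0.46) fell and URI1 (0.25) and RPAP3 (0.19) rose. In place of those 2, 1 gene rose with DESeq2 and without shcontrol replicate 1, shBDH1 replicate 1 or shBDH1 replicate 2, and none with no filter on low values. Among the 5 tested genes of the CCT cofactor list, PDCL, the phosducin-like protein that helps CCT assemble G protein beta subunits, rose (0.31, limma adjusted p = 0.0084), as did STIP1, which links Hsp70 and Hsp90 (0.20, limma adjusted p = 6.5e-05). Without shcontrol replicate 2, and likewise without shBDH1 replicate 2, 1 gene of this list rose in place of 2. TSSC4 fell (-0.26), a call lost with DESeq2, without shcontrol replicate 1, shcontrol replicate 2 or shBDH1 replicate 1, and in 3 further settings. PDCL3 (0.14) and TXNDC9 (0.02) did not pass (limma adjusted p = 0.23 and 0.87), and PDCL2 was under the filter.

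Genes of the same protein family as CCT had few counts beside the 8 subunits. CCT6B, the testis form of the zeta subunit, had 1073 and 1165 normalized counts in shBDH1 and 1009 and 1098 in shcontrol (log2 fold change 0.09, limma adjusted p = 0.44). The pseudogenes CCT6P1 (-0.09) and CCT6P3 (0.20) did not pass. Of the chaperonin-like proteins that assemble the BBSome, MKKS fell (-0.43, limma adjusted p = 0.011), a call that was lost without shBDH1 replicate 1 or shcontrol replicate 2, and BBS10 (-0.03) and BBS12 (-0.37) did not pass.

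Clients of CCT went both ways, and of all genes tested 20.3% rose and 20.8% fell. Among genes with a mean of at least 5000 normalized counts, 29.8% rose and 42.1% fell. Of 13 actins and tubulins tested, 5 rose and 4 fell. ACTB had 76243 and 77180 normalized counts in shBDH1, against 104703 and 105402 in shcontrol (log2 fold change -0.45, limma adjusted p = 3e-15), whereas ACTG1 had 72921 and 72805 in shBDH1, against 43452 and 44866 in shcontrol (0.72, limma adjusted p = 1.2e-18). These genes have near-identical coding sequences, as do the tubulins TUBA1B (-0.25) and TUBA1C (-0.28), so single values are uncertain. Summed over the 14 listed, actin and tubulin counts were 295963 and 300201 in shBDH1 and 311742 and 312846 in shcontrol. Of 14 other clients, 5 rose and 4 fell. MLST8, a WD-repeat subunit of both mTOR complexes, fell most, with 1112 and 1179 in shBDH1 and 2702 and 2615 in shcontrol (-1.21, limma adjusted p = 1.3e-14), and PLK1 fell (-0.43). STAT3 (0.46) and GNB1, a G protein beta subunit (0.41), rose. Of 4 tubulin cofactors, TBCC rose (0.40) and TBCD fell (-0.21), and the rise of TBCC was lost without any 1 of 3 libraries (shcontrol replicate 2, shBDH1 replicate 1 or shBDH1 replicate 2).

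**Figure D5:**
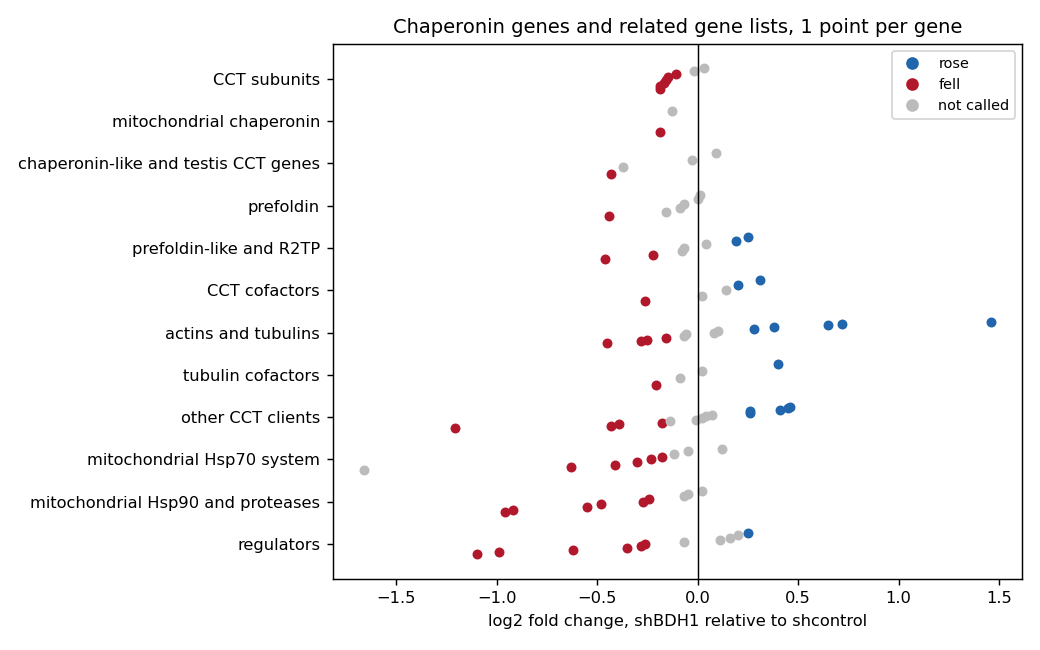
Log2 fold change (x axis, shBDH1 relative to shcontrol) of each tested gene of the chaperonin and related lists, 1 point per gene, blue where it rose, red where it fell and grey where it was not called. Most chaperonin genes lie just below 0, and actins, tubulins and other clients lie on both sides. Mitochondrial proteases and the regulators reach -0.96 and -1.10. The lowest points are DNLZ of the mitochondrial Hsp70 list (-1.66, not called, mean 13.2 counts) and the client MLST8 (-1.21).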

How the data were processed

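The deposited table gives, for each gene and library, a normalized signal, made by the authors as reads over a library's size factor. The values themselves show it, being whole multiples of 1 step in each library (100.0% within 0.01 reads; size factors 1.0174 and 0.9944 for shBDH1, 0.9739 and 0.9785 for shcontrol), although the file headers speak of counts. Per the submitters' processing notes, reads were handled with FastQC 0.11.9 and HISAT2 2.2.1 on hg38; which counter, annotation release and strand setting were used is not given in the sources used here.

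Genes averaging 10 or more over the 4 libraries were tested with limma 3.58.1 (R 4.3.3) on log2(value + 1), with trend=TRUE and Benjamini-Hochberg adjustment over all 19301 genes. edgeR 4.0.16 and DESeq2 1.42.0 served as alternatives on the recovered reads, with other scalings, filters and pseudocounts, a block for the replicate number, and libraries left out singly. Tables and figures used Python 3.11.15. Positions and lengths are from GENCODE 29 (GRCh38, the build called hg38), promoter windows from RefSeq (GRCh38.p14); 9 of the 10 genes matched a window. Near copies were searched with blastn in GENCODE transcripts.

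The 10 genes and the related lists were chosen with earlier results of these data known. Named genes are the 10, BDH1, MYC and HSF1, up to 4 members of each list with the smallest p, divergent neighbours within 1000 bases, genes that overlap a member, and pseudogenes by symbol; list members given beyond that were chosen after their values were seen. Libraries of a group differed by more than sampling noise (chi-square per degree of freedom 4.98 for shBDH1 and 3.71 for shcontrol, against 42.4 to 45.2 between groups).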

Additional observations from a re-analysis of the deposited data

How the results depend on the processing

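Over the 14 alternatives, 5 to 7 of the 10 chaperonin genes fell and none rose. CCT2, CCT5, CCT7 and HSPD1 passed in all 14, CCT8 in 13, CCT4 in 12 and CCT3 in 8. No called value changed sign. With the replicate block 7 fell, and no chaperonin call changed; deviations of same-numbered libraries had a correlation of 0.001 across genes, so the numbers do not pair the libraries. CCT3 was also lost with no filter on low values (limma adjusted p = 0.12) and in edgeR with library totals (adjusted p = 0.096) or upper-quartile factors (0.19). The median log2 fold change of all genes was -0.007 as reported and reached 0.038 with upper-quartile factors. The spread over CCT subunits was 19.5% as reported, 31.1% with the longest transcript as length and 28.0% with coding length (added after the data were seen), and 18.7% to 20.2% with 1 library left out. The HSPE1 to HSPD1 ratio was 0.00589, and 0.00709 and 0.0154 with those lengths. Coding length from a protein table was not run. Where 1 library is left out, the lone library of its group is assumed to vary like the other group. The test of HSPE1 is limited by its low counts, under 90 a library, and why they are low was not tested.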
